A study of Mus musculus with 5 samples.

Results

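The genes described here are 6 transcription factor genes through which the circadian clock passes its rhythm on to liver metabolism: the PAR bZIP activators Dbp, Tef and Hlf, the bZIP repressor Nfil3 (also called E4bp4), and the bHLH-Orange repressors Bhlhe40 (Dec1) and Bhlhe41 (Dec2). They were found as the non-control probes whose gene name on the array is one of these symbols, which gave 12 of 56605 probes and 6 of 36870 gene names. In mouse liver 6 hr after troglitazone, the PAR bZIP messages were low, Tef least so, and Nfil3 was high. Dbp lay 16.4-fold below vehicle, Hlf 6.80-fold below and Tef 2.11-fold below, while Nfil3 lay 7.73-fold above. After rosiglitazone at the same dose none of the 5 genes with a value lay 2-fold from vehicle, beside 3.33% of all genes. With buthionine sulfoximine given beside troglitazone, Dbp was 2.19-fold and Hlf 2.41-fold higher than with troglitazone alone, of which the Hlf value just missed 2-fold under another background correction.

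The 5 groups were 6-week-old female BALB/c mice. Each group was 1 array, hybridised with a single pool of equal amounts of liver RNA from 6 animals, taken 6 hr after intraperitoneal dosing. The groups were Vehicle, TGZ at 300 mg/kg, BSO at 700 mg/kg plus TGZ at 300 mg/kg (BSO+TGZ), RGZ at 300 mg/kg, and BSO at 700 mg/kg plus RGZ at 300 mg/kg (BSO+RGZ). TGZ is troglitazone, per the study's title, and RGZ and BSO are the usual short names of rosiglitazone and buthionine sulfoximine. Troglitazone and rosiglitazone are both thiazolidinediones that activate the nuclear receptor PPARγ. They share the thiazolidinedione head group, and troglitazone carries a chroman ring like that of vitamin E where rosiglitazone carries a pyridyl-amino tail. BSO blocks the synthesis of glutathione, the cell's main thiol antioxidant. The study asked how troglitazone injures the liver in this model. The vehicle's composition, the clock time of dosing and the interval between BSO and the thiazolidinedione were not given in the sources used here, and no group with BSO alone was analysed here.

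In the clock, the activators CLOCK and BMAL1 drive Dbp, the Per genes and the Bhlhe genes from E-box sequences, and PER and CRY proteins, joined by BHLHE40 and BHLHE41, repress that drive. DBP, TEF and HLF bind as dimers to D-box sequences and switch on genes for drug metabolism and detoxification in liver, and NFIL3 binds the same sequence as a repressor. Nfil3 is also induced by immune signals and is needed for natural killer cells, and Bhlhe40 responds to hypoxia and other stress.

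A level is given here as the scaled signal, which is the background-subtracted spot signal divided by the array's own 75th percentile over non-control probes, so 1 is the level of a fairly bright probe. Levels of different probes were not set against each other, except that sums over marker genes add them. The brightest probes weigh most in such a sum, so it need not follow every marker. With 1 pool per group there was no replicate, and no test between groups was possible. The 95% interval beside a fold is the scanner software's error of the spots alone. It leaves out differences between animals, RNA pools and labelling reactions. For bright member spots the software's error was close to 10% of the signal on every array, nearly a constant. The interval then spans a factor of about 1.32 on either side, so a 1.2-fold difference cannot be told from none. A gene was counted as called when it lay at least 2-fold from the other array. Every comparison with vehicle used the same vehicle array.

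The 75th percentile signal ranged from 141.5 with TGZ to 208.4 with RGZ, 51.9% to 55.2% of the probes were well above background, and 0 spots were saturated. All 8 hepatocyte markers, among them Alb, Apoa1 and Ttr, were well above background on the 5 arrays. When the arrays were scaled to spike-in RNA, the median of all genes moved by -0.46 on the log2 scale for TGZ against Vehicle, by -0.19 for BSO+TGZ, by 0.09 for RGZ and by 0.13 for BSO+RGZ. All values below are relative to the bulk of genes on each array.

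Dbp, Tef, Hlf, Nfil3 and Bhlhe40 had a probe well above background on the 5 arrays. Bhlhe41 had 1 of its 2 probes above background, and on the TGZ array alone. Of the 6 members, 4 were called for TGZ against Vehicle, 1 higher and 3 lower, where 19.6% of all genes with a value were called, 10.1% higher and 9.53% lower. For BSO+TGZ against Vehicle 3 of the 5 members with a value were called, 1 higher and 2 lower, beside 14.2% of all genes, 8.31% higher and 5.91% lower. For RGZ against Vehicle the count was 0 of 5 beside 3.33%, and for BSO+RGZ against Vehicle 0 of 5 beside 6.83%. The member genes were chosen with results of these arrays known, so these counts describe them and carry no further weight.

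**Figure D1:**
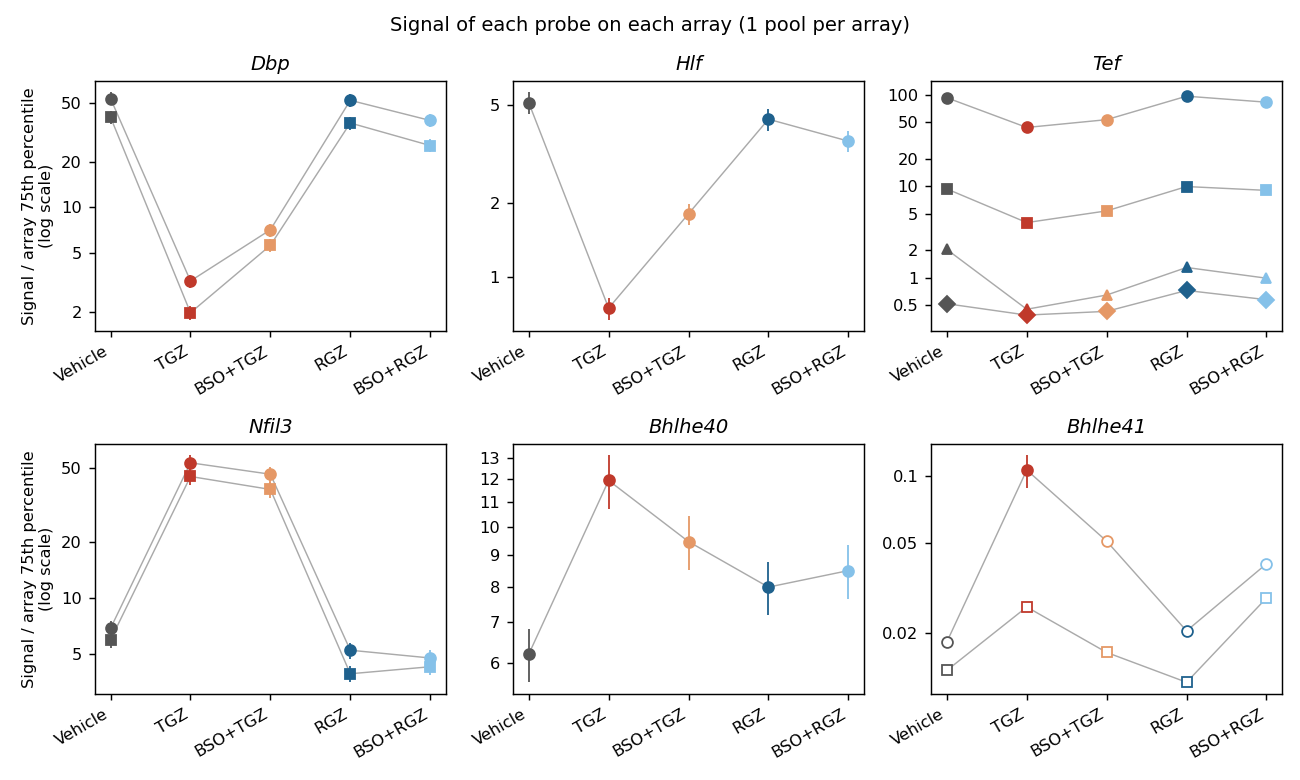
Scaled signal (spot signal over the array's 75th percentile, log axis with its own range in each panel) of the 12 member probes on the 5 arrays. Circles, squares, triangles and diamonds are probes 1, 2, 3 and 4 of a gene, bars are the scanner software's error of 1 SD, hollow points were not well above background and carry no bar, and thin lines join the points of a probe and mark no order in time. Dbp and Hlf are lowest with TGZ and next lowest with BSO+TGZ, Nfil3 is highest on the same 2 arrays, and Bhlhe41 is above background with TGZ only.

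Dbp, the PAR bZIP gene with the widest daily swing in liver, is on chromosome 7, with its probes at chr7:52965265-52965324 and chr7:52965461-52965520 (mm9, plus strand). The first, brighter probe read 53.1 with vehicle, 3.23 with TGZ, 7.09 with BSO+TGZ, 51.7 with RGZ and 38.0 with BSO+RGZ. The second read 39.9, 1.99, 5.58, 36.5 and 25.8 in the same order. The 3 arrays without troglitazone lay far above the 2 arrays with it on both probes. Dbp was 16.4-fold lower with TGZ than with vehicle (95% interval 12.5 to 21.7), which placed it at rank 23 from the low end of 21215 genes with a value, and the second probe gave 20.1-fold (15.2 to 26.5). With BSO+TGZ it was 7.49-fold lower (5.68 to 9.89), at rank 17 of 21419 genes. Vehicle and RGZ were neighbours in the order of levels and did not differ beyond the spot error, at 1.03-fold (0.778 to 1.35). BSO+RGZ lay 1.40-fold below vehicle (1.06 to 1.85), just outside that error.

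Hlf, a PAR bZIP factor also known from a leukaemia fusion protein, has 1 probe, at chr11:90201236-90201295 (mm9, minus strand). It read 5.11 with vehicle, 0.752 with TGZ, 1.81 with BSO+TGZ, 4.38 with RGZ and 3.57 with BSO+RGZ. The order of the 5 arrays was that of Dbp, over a narrower range. Hlf was 6.80-fold lower with TGZ than with vehicle (5.14 to 8.99; rank 150 from the low end) and 2.82-fold lower with BSO+TGZ (2.14 to 3.72). With RGZ it was 1.17-fold lower (0.885 to 1.54), within the spot error, and with BSO+RGZ 1.43-fold lower (1.09 to 1.89).

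Tef, the PAR bZIP gene first described in the thyrotroph cells of the pituitary, has 4 probes on chromosome 15 (mm9, plus strand). Probe 1, at chr15:81657221-81657280, read 92.6 with vehicle, 43.9 with TGZ, 53.4 with BSO+TGZ, 96.4 with RGZ and 82.8 with BSO+RGZ. It was 2.11-fold lower with TGZ than with vehicle (1.60 to 2.79), at rank 1806 from the low end of 21215 genes. With BSO+TGZ it was 1.73-fold lower (1.31 to 2.29). By their brightest probes Tef thus differed least of the 3 PAR bZIP genes, and only its TGZ array passed 2-fold. Vehicle, RGZ and BSO+RGZ did not differ beyond the spot error on this probe.

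The Tef probes differed in size of difference and in part in direction. Probe 2, at chr15:81656928-81656987, was 2.33-fold lower with TGZ (1.77 to 3.07), close to probe 1. Probe 3, at chr15:81647233-81647292, is named for an Ensembl transcript model that the other 3 probes do not carry. It read 2.04 with vehicle, 0.454 with TGZ, 0.649 with BSO+TGZ, 1.3 with RGZ and 0.991 with BSO+RGZ. Vehicle was highest on this probe, and it alone among the members' probes lay 2-fold from vehicle with BSO+RGZ. Its folds below vehicle were 4.49 with TGZ (3.38 to 5.97), 3.14 with BSO+TGZ (2.38 to 4.16), 1.57 with RGZ (1.19 to 2.08) and 2.06 with BSO+RGZ (1.56 to 2.72). Probe 4 spans chr15:81651816-81653921, more than its own length in the genome, as a probe across an exon junction does. It read 0.521, 0.392, 0.431, 0.728 and 0.577 from vehicle to BSO+RGZ. Its 1.33-fold lower level with TGZ was within the spot error (0.994 to 1.78), and with RGZ it was 1.40-fold higher (1.05 to 1.85).

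The promoters of these genes are shown because the factors' own clock control and their targets are read through short sequence elements. RefSeq's table on GRCm38.p6 held 5 of the 6 members, with 6 start sites; Bhlhe40 was not matched. The 250 bases before each start were searched on both strands for the E-box CACGTG, the E-prime box CACGTT, the D-box as TTANGTAA or TTATGCAA, and the cyclic AMP response element TGACGTCA. No window held more than 1 match, so no matches overlapped. Matches are in capitals, and each sequence is written 5′ to 3′ on the gene's strand, ending at the base before the start.
Dbp: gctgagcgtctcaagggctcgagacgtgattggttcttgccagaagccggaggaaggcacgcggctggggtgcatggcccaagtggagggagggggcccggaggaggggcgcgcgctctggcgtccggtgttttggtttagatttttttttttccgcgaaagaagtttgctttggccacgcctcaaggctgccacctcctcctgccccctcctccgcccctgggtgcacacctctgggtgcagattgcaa
Hlf: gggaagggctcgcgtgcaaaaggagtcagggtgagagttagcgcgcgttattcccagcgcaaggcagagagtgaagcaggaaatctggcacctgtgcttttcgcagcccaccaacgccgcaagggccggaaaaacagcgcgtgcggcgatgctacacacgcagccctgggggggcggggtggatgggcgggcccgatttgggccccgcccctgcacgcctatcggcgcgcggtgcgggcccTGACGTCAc
Tef start 1: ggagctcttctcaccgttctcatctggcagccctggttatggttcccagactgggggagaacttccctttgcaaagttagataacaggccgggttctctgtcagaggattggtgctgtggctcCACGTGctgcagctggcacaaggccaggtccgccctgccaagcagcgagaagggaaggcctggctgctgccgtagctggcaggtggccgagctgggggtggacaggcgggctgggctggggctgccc
Tef start 2: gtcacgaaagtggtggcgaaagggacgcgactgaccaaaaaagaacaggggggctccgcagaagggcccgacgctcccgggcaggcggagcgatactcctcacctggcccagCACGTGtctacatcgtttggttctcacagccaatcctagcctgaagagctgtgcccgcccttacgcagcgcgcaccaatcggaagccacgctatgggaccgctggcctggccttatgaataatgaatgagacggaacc
Nfil3: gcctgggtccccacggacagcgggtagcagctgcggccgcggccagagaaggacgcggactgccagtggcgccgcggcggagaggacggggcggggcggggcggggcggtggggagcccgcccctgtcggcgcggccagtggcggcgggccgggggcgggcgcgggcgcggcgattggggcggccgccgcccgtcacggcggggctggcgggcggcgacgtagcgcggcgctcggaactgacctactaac
The windows are chr7:45704997-45705246 on the plus strand for Dbp, chr11:90390918-90391167 on the minus strand for Hlf, chr15:81802423-81802672 and chr15:81811164-81811413 on the plus strand for Tef, and chr13:52981040-52981289 on the minus strand for Nfil3. Both Tef starts hold an E-box, 127 and 138 bases before the start. Bhlhe41 holds 1 as well, 153 bases before its start, and 6.02% of all 32851 promoter windows of this length hold it. Hlf holds a cyclic AMP response element 9 bases before its start, a string found in 1.55% of all windows. The Dbp and Nfil3 windows held none of the strings searched, which says nothing of sequence outside them. No member window held a D-box, found in 2.73% of all windows, or an E-prime box, found in 3.85%. The Nfil3 window is 81.6% G or C, against a median of 52.4% over all windows.

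Nfil3, the repressor at the D-box, lay above vehicle on both arrays with troglitazone, where the activators lay below it. Its probes, at chr13:53062578-53062637 and chr13:53062585-53062644 (mm9, minus strand), share 53 bases and so are close to a repeat of a single measurement. The first read 6.88 with vehicle, 53.2 with TGZ, 46.2 with BSO+TGZ, 5.25 with RGZ and 4.76 with BSO+RGZ. The second read 5.98, 44.9, 38.3, 3.92 and 4.28. Both arrays with troglitazone lay far above the other 3. Nfil3 was 7.73-fold higher with TGZ than with vehicle (5.85 to 10.2), at rank 233 from the high end of 21215 genes, and 6.71-fold higher with BSO+TGZ (5.08 to 8.85). The second probe gave 7.52-fold and 6.40-fold. With RGZ the first probe was 1.31-fold lower than vehicle (0.995 to 1.73), within the spot error, and the second 1.52-fold lower (1.16 to 2.01). With BSO+RGZ the first was 1.44-fold lower (1.09 to 1.91).

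The summed signal of neutrophil markers was also highest on the arrays where Nfil3 was high. The summed scaled signal of the 8 markers was 112 with vehicle, 256 with TGZ, 257 with BSO+TGZ, 121 with RGZ and 128 with BSO+RGZ. Of the 8, 4 were called higher with TGZ and 5 with BSO+TGZ, beside 10.1% and 8.31% of all genes. The receptor gene Cxcr2 was not well above background in the vehicle pool. S100a8, an abundant neutrophil protein gene, read 1.34 with vehicle and 25.0, 27.2, 4.41 and 5.99 on the TGZ, BSO+TGZ, RGZ and BSO+RGZ arrays. S100a8 was thus above vehicle on the RGZ arrays as well, where Nfil3 was not. Not all markers followed: Ly6g was 1.62-fold lower with TGZ (1.22 to 2.15), and Ly6g and Elane were both highest with vehicle. Summed cholangiocyte markers, of which Krt7 and Epcam were not well above background on any array, also followed Nfil3, at 6.10, 13.3, 10.7, 5.26 and 4.25 from vehicle to BSO+RGZ. Among the 3 measured, Sox9 was 13.4-fold higher with TGZ and Krt19 1.63-fold lower (1.22 to 2.17). Sums of 6 stellate cell and fibroblast markers were 108, 124, 118, 93.0 and 85.8, although Lrat was 4.62-fold lower with TGZ. No marker of that list was called higher with TGZ, beside 10.1% of all genes, and its median was -0.03 on the log2 scale. The sums of 9 lymphocyte and natural killer cell markers were 8.52, 10.2, 9.65, 6.92 and 6.54. Among these, Prf1 was 2.57-fold higher and Klrk1 at least 2.17-fold lower with TGZ. Sums of 8 Kupffer cell and macrophage markers stayed between 50.4 and 64.7 and were lowest with TGZ. Of these 8, 1 was called higher and 0 lower with TGZ, beside 10.1% and 9.53% of all genes. Their median was -0.34 on the log2 scale. The marker called, Cd68, was 2.90-fold higher with TGZ and 2.74-fold higher with BSO+TGZ. With RGZ and BSO+RGZ it was within the spot error of vehicle. Vsig4 was 1.78-fold lower with TGZ (1.34 to 2.36), and Marco was 3.43-fold higher with RGZ. Of the natural killer and B-cell markers, Ncr1, Klrb1c and Cd79a were not well above background on any array. The part of such cells in the Nfil3 signal was not tested, and in whole liver more cells of a type and more RNA per cell cannot be told apart.

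The summed signal of 5 sinusoidal endothelial markers was 57.3 with vehicle, 33.5 with TGZ, 46.4 with BSO+TGZ, 54.5 with RGZ and 49.9 with BSO+RGZ, lowest on the array where Dbp, Hlf and Tef were lowest. Within that list Kdr was -1.94 on the log2 scale with TGZ against vehicle and Lyve1 3.75, so its members went opposite ways. Summed hepatocyte markers were 5420 with vehicle and 6824 with TGZ. Whether cell content moved the PAR bZIP values was not tested.

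Bhlhe40, a repressor of CLOCK and BMAL1, differed less than the bZIP genes. Its probe, at chr6:108616309-108616368 (mm9, plus strand), read 6.21 with vehicle, 11.9 with TGZ, 9.48 with BSO+TGZ, 7.99 with RGZ and 8.50 with BSO+RGZ. With this scaling vehicle was lowest of the 5 arrays and TGZ highest. The order of the treated arrays depended on the scaling. With spike-in scaling BSO+TGZ lay below BSO+RGZ, at -0.16 on the log2 scale. The fold above vehicle was 1.92 with TGZ (1.46 to 2.53) and 1.53 with BSO+TGZ (1.16 to 2.01). It was 1.37 with BSO+RGZ (1.04 to 1.81), and 1.29 with RGZ (0.975 to 1.70), which is within the spot error. No array passed 2-fold. In the order TGZ, BSO+TGZ, BSO+RGZ, RGZ and Vehicle, no neighbouring pair differed beyond the spot error.

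Bhlhe41, the paralogue of Bhlhe40, was near the detection limit. Its first probe, at chr6:145812652-145812711 (mm9, minus strand), was well above background with TGZ only, at 0.106. It read 0.0182 with vehicle, 0.0511 with BSO+TGZ, 0.0204 with RGZ and 0.0405 with BSO+RGZ, none of them well above background. Against the lowest measurable signal of the vehicle array, the TGZ level was at least 1.90-fold higher. That bound exists only because the gene was seen on the TGZ array. It leaves out the spot error of that reading, 16.5%, as do this gene's bounds in other comparisons. The second probe, at chr6:145806764-145806823, was below background on the 5 arrays.

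**Figure D2:**
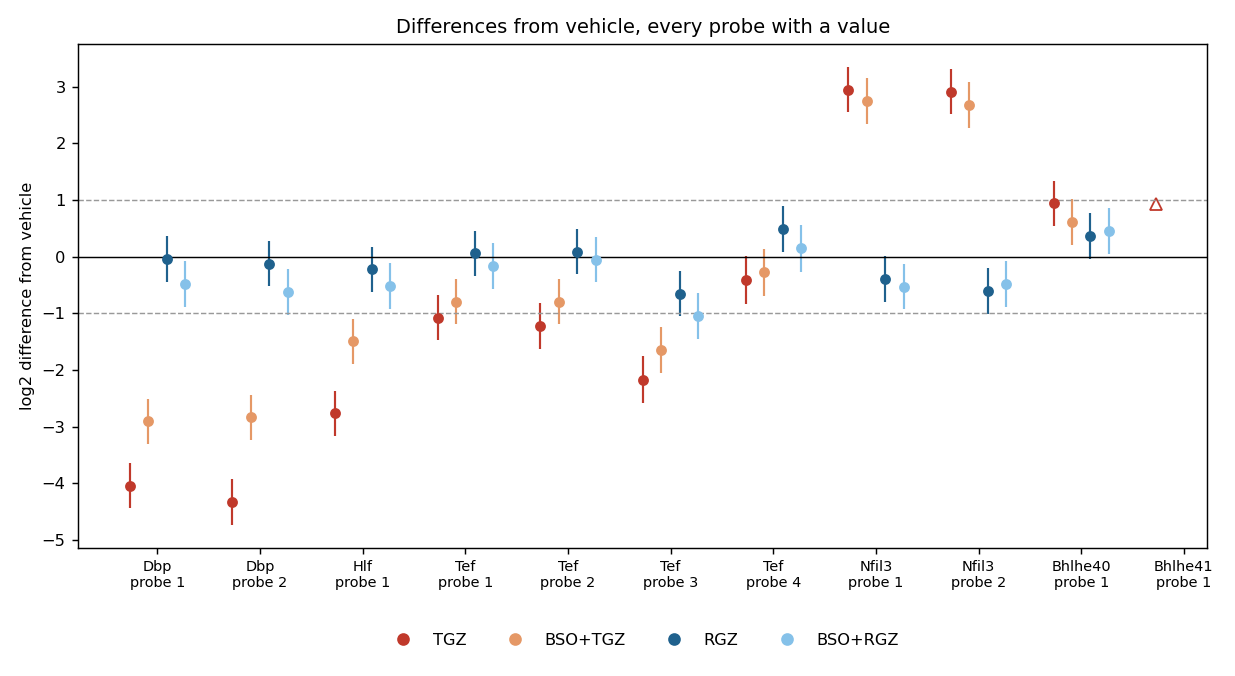
Difference from the vehicle array on the log2 scale (vertical axis) for every member probe with a value, for the 4 treated groups. Bars are 95% intervals from the spot error, dashed lines mark 2-fold, and the open triangle for Bhlhe41 is a lower bound. The TGZ and BSO+TGZ points of Dbp and Hlf lie below the lower dashed line and those of Nfil3 above the upper, while the RGZ and BSO+RGZ points stay between the lines except Tef probe 3 with BSO+RGZ.

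The 2 thiazolidinediones were compared at the same dose and time, as 2 pairs: TGZ against RGZ, and the same with BSO in both groups. Dbp was 16.0-fold lower with TGZ than with RGZ (12.1 to 21.1), at rank 14 from the low end of 21094 genes. Hlf was 5.82-fold lower (4.40 to 7.70) and Tef 2.20-fold lower (1.66 to 2.90). Nfil3 was 10.1-fold higher with TGZ than with RGZ (7.68 to 13.4), at rank 125 from the high end. Bhlhe40 was 1.49-fold higher (1.13 to 1.97), a difference that came to 0.03 on the log2 scale when the arrays were scaled to spike-in RNA. Of the 6 members 5 were called, 2 higher and 3 lower, beside 18% of all genes, 9.41% higher and 8.56% lower. The fifth was Bhlhe41, at least 2.12-fold higher and measured on the TGZ side alone. Its bound fell under 2-fold with spike-in scaling, at 0.53 on the log2 scale, and with normexp background correction, at 0.68.

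With BSO in both groups the compounds lay closer for Dbp and Hlf. Dbp was 5.36-fold lower with BSO+TGZ than with BSO+RGZ (4.06 to 7.07), Hlf 1.97-fold lower (1.49 to 2.60) and Tef 1.55-fold lower (1.18 to 2.05). Nfil3 was 9.69-fold higher (7.35 to 12.8), nearly as far apart as without BSO. For Bhlhe40 the fold was 1.12 with an interval of 0.845 to 1.47, which does not show that the compounds act alike, and its log2 value of 0.16 turned to -0.16 with spike-in scaling. Of the 5 members with a value 2 were called, Nfil3 higher and Dbp lower, beside 13.6% of all genes, 8.33% higher and 5.28% lower.

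BSO beside a thiazolidinedione was set against the thiazolidinedione alone. With TGZ, Dbp was 2.19-fold higher when BSO was given (1.66 to 2.89), at rank 217 from the high end of 20809 genes, and its second probe 2.81-fold higher (2.13 to 3.71). Hlf was 2.41-fold higher (1.82 to 3.19), at rank 159, and just missed 2-fold with normexp background correction, at 0.98 on the log2 scale. Both were still at least 2-fold below vehicle with BSO+TGZ. Tef probe 1 was 1.22-fold higher, within the spot error (0.923 to 1.61), and probe 3 was 1.43-fold higher (1.07 to 1.90). Nfil3 was 1.15-fold lower (0.873 to 1.52) and Bhlhe40 1.26-fold lower (0.954 to 1.66), both within the spot error. For Bhlhe41, seen with TGZ alone, the bound was at least 1.77-fold lower, a direction fixed by that detection. Of the 6 members 2 were called, both higher, beside 2.06% of all genes in either direction, 1.57% higher and 0.495% lower.

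With RGZ, none of the 5 members with a value was called when BSO was added, beside 1.25% of all genes. Dbp was 1.36-fold lower (1.03 to 1.80) and its second probe 1.41-fold lower (1.07 to 1.87). Hlf was 1.23-fold lower and Tef probe 1 1.16-fold lower, both within the spot error. The difference between the log2 values for BSO with TGZ and with RGZ was 1.58 for Dbp (1.01 to 2.14), 1.99 for its second probe and 1.56 for Hlf (1.00 to 2.13). It was 0.90 for Tef probe 3 (0.33 to 1.48), 0.50 for Tef probe 1 (-0.06 to 1.07), -0.07 for Nfil3 and -0.42 for Bhlhe40 (-0.99 to 0.14). For Dbp, Hlf and Tef probe 3 the 2 values thus differed by more than the spot error, and for Nfil3, Bhlhe40 and the other 3 Tef probes they did not.

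**Figure D3:**
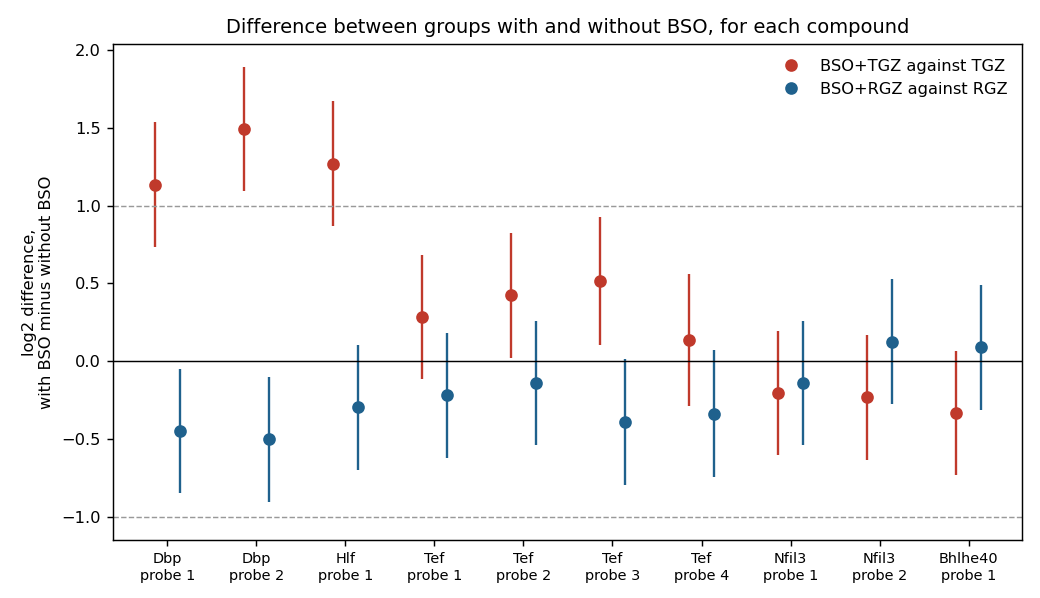
Log2 difference between the group with BSO and the group without it (vertical axis), for TGZ and for RGZ, for every member probe measured on the 5 arrays. Bars are 95% intervals from the spot error and dashed lines mark 2-fold. Dbp and Hlf lie above 1 with TGZ and below 0 with RGZ, while the intervals of both compounds overlap for Nfil3 and Bhlhe40.

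The members' patterns were compared with each other by a distance. The root mean square distance between the centred log2 values of the 5 arrays was 0.59 between Tef and Hlf and 0.70 between Dbp and Hlf. Tef was nearer to Bhlhe40, at 0.74, than to Dbp, at 1.21. The distance counts the size of the differences as well as their direction, so genes with small differences lie near each other. With TGZ against vehicle, Tef was -1.08 and Dbp -4.04 on the log2 scale, both lower, while Bhlhe40 was 0.94, higher. The distance was 3.19 between Dbp and Nfil3, the widest of the 10 pairs. By the same measure, the genes closest to Dbp among 13908 candidates were Spata2l at 0.12, Gas1 at 0.18 and Fam214a at 0.26. Gas1, a growth arrest gene, was -3.77 on the log2 scale with TGZ against vehicle and -2.93 with BSO+TGZ. Those closest to Hlf were Slc35d2, Pcdh12 and Tbc1d2b, at 0.09 to 0.11. Those closest to Nfil3 were Gja4, Hivep2 and Tgfb3, at 0.08 to 0.14. Tgfb3, a growth factor of the TGF-β family, was 2.51 with TGZ and 2.53 with BSO+TGZ. The nearest to Tef was Atp8b5 at 0.02 and the nearest to Bhlhe40 was Usp49 at 0.03. Over 5 arrays such likeness is a description of these pools.

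The core clock genes did not all stand where Dbp stood. Of 15 genes 14 had a value. For TGZ against Vehicle 2 were called higher and 2 lower, beside 10.1% and 9.53% of all genes. Their median was 0.26 on the log2 scale beside 0.02 for all genes. Per2, a repressor of the clock, read 4.05 with vehicle, 0.753 with TGZ, 2.18 with BSO+TGZ, 5.57 with RGZ and 4.29 with BSO+RGZ. Per3 read 0.987, 0.0650, 0.278, 0.911 and 0.537, and was not well above background with TGZ. Both genes were lowest with TGZ and next lowest with BSO+TGZ, as Dbp and Hlf were. With TGZ against vehicle, Per3 was at least 14.9-fold lower and Per2 5.38-fold lower (4.07 to 7.12).

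Other clock genes were level or higher. Per1 read 5.82 with vehicle and 15.8 with TGZ, and Ciart, a clock repressor also called Chrono, was 2.99-fold higher with TGZ (2.24 to 3.98). The REV-ERB genes Nr1d1 and Nr1d2, at -0.10 and 0.06 on the log2 scale, were near vehicle. For BSO+TGZ against TGZ the clock genes called were Per3, at least 4.19-fold higher, and Per2, 2.89-fold higher. Arntl, which encodes BMAL1, was the clock gene called with RGZ against vehicle, 3.53-fold lower (2.44 to 5.10).

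The reported targets of the PAR bZIP factors in liver did not shift as a group with TGZ. All 18 had a value, and 2 were called higher and 1 lower, beside 10.1% and 9.53% of all genes. Their median was 0.12 beside 0.02 for all genes. Cyp7a1, whose enzyme sets the pace of bile acid production, read 4.18 with vehicle, 0.0563 with TGZ, 0.470 with BSO+TGZ, 10.8 with RGZ and 6.50 with BSO+RGZ. Its TGZ level lay at least 63.1-fold below vehicle and at least 7.09-fold below BSO+TGZ. Por, the electron donor of the cytochrome P450 enzymes, was 2.37-fold higher with TGZ (1.80 to 3.13). Upp2, a liver uridine phosphorylase, read 5.32 with vehicle, 12 with TGZ, 11.1 with BSO+TGZ, 2.28 with RGZ and 1.31 with BSO+RGZ. It was high with TGZ, where Dbp was low. The other 15 targets lay within 2-fold of vehicle with TGZ, among them the Cyp2a, Cyp2b and Cyp2c genes and the receptor genes Nr1i3 and Ppara.

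For BSO+TGZ against Vehicle the targets called were Cyp7a1, 8.89-fold lower (6.70 to 11.8), and Upp2, 2.09-fold higher (1.58 to 2.75). For RGZ against Vehicle they were Cyp7a1, 2.58-fold higher, Alas1, the first enzyme of haem synthesis, 2.09-fold higher, and Upp2, 2.33-fold lower. With BSO+RGZ, Upp2 was 4.08-fold, Cyp2b13 3.44-fold and Cyp2c55 2.98-fold lower than with vehicle, and Alas1 2.28-fold higher. The other 15 targets with RGZ and 14 with BSO+RGZ lay within 2-fold of vehicle. Of all genes 3.33% were called with RGZ and 6.83% with BSO+RGZ.

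**Figure D4:**
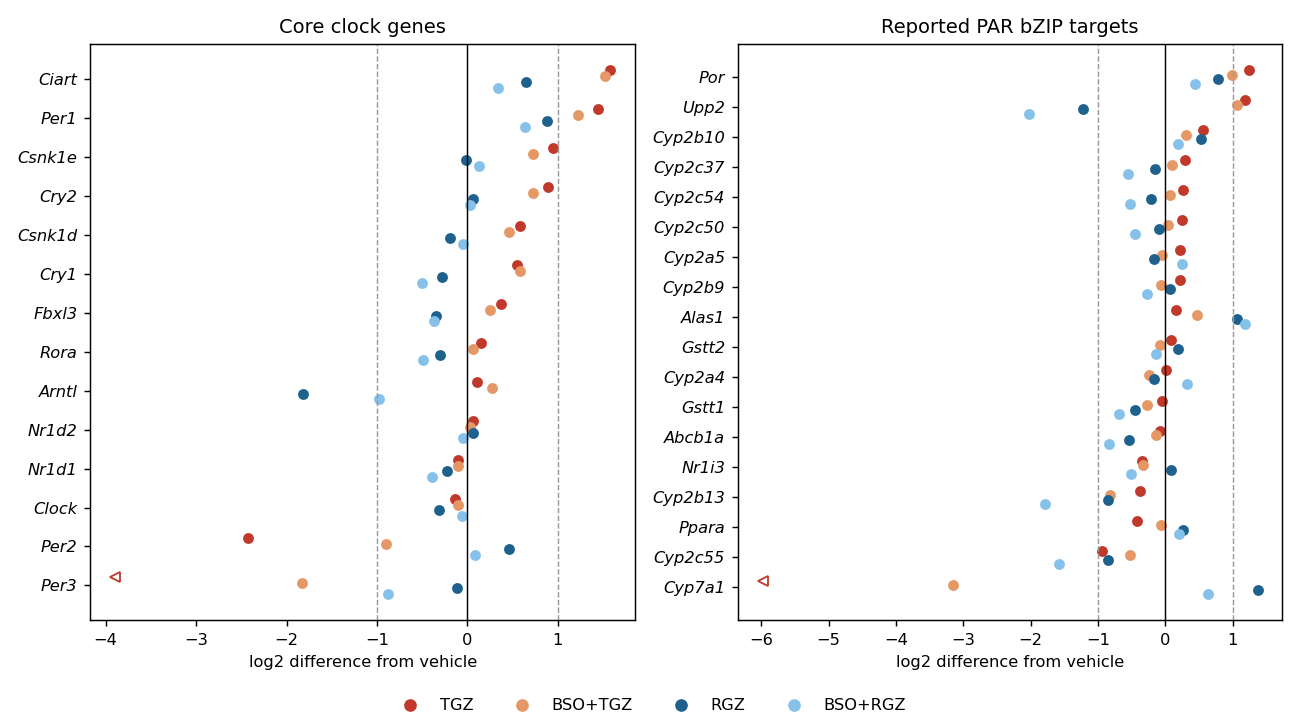
Log2 difference from the vehicle array (horizontal axis) for the 14 core clock genes with a value and the 18 reported PAR bZIP targets, each list ordered by its TGZ value. Dashed lines mark 2-fold and open triangles are bounds, where the gene was not well above background with TGZ. Per2 and Per3 lie lowest among the clock genes with TGZ, and of the targets Cyp7a1 alone lies below the lower dashed line with TGZ.

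The wider families of the members were also described. Among other rhythmic liver genes, 3 of 10 were called higher and 3 lower with TGZ against Vehicle, beside 10.1% and 9.53% of all genes. Marveld1 was 5.33-fold lower (3.98 to 7.13) and read 1.71, 0.320, 0.758, 2.25 and 2.48 from vehicle to BSO+RGZ. Lpin1, a phosphatidate phosphatase and coactivator gene, was 4.94-fold higher (3.74 to 6.52). With RGZ against Vehicle 1 of the 10 was called higher and 1 lower, beside 3.33% of all genes in either direction. These were Tspan4, 2.85-fold higher (2.16 to 3.76), and Rgs16, 3.92-fold lower (2.97 to 5.18). With BSO+RGZ, Rgs16 was 8.81-fold lower than with vehicle (6.67 to 11.6), at rank 9 from the low end of 21201 genes. Of the C/EBP genes, bZIP factors that can bind sites like the D-box, 2 of the 5 with a value were called with TGZ, both higher. Cebpd was 5.29-fold higher (4.01 to 6.98) and Cebpb 4.69-fold higher (3.55 to 6.18), and both were within 2-fold of vehicle with RGZ. Of 7 other bHLH-Orange repressors 3 had a value with TGZ against Vehicle. Hes6 was 6.63-fold lower (5.02 to 8.75), Hey1 at least 2.41-fold lower and Hes1 2.04-fold higher, so these relatives of Bhlhe40 went in both directions.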

How the data were processed

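Liver RNA of 5 groups, 1 pool of 6 mice per group, was labelled with Cy3 and read on single-colour Agilent arrays. Per the file headers, the deposited intensities are spot signals from Agilent Feature Extraction 12.0.3.1, background-subtracted within each array. The deposited value table holds log2 values whose column medians are 4.02, 4.01, 4.07, 4.00 and 3.92 from Vehicle to BSO+RGZ. They equal the log2 scanner signals, uncentred by gene, plus a shift per array that varied over probes by at most 0.31 to 0.80. What set that shift was not stated in the sources used here.

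Spots of a probe were averaged, and log2 signals were scaled to the array's 75th percentile over non-control probes. Each gene was represented by its brightest probe on average. A comparison has a value where the probe was well above background on at least 1 of the 2 arrays, and a dim array was then raised to its lowest signal well above background, which gives a bound. Precision comes from the software's spot error, with a median SD of 0.146 on the log2 scale. Across 300 probes printed in 10 spots the median SD within an array was 0.041 to 0.044. The steps were tested on simulated data. Python 3.11.15, pandas 2.3.3, numpy 2.4.6, matplotlib 3.10.9, R 4.3.3 and limma 3.58.1 were used.

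The genes named were the 6 members, up to 4 genes per list and comparison that lay farthest past 2-fold, and the 3 genes nearest to each member; further genes were named for their role after their values were seen. An item of the core clock list is not reported here and was left out of that list's counts. Members and lists were chosen with earlier results of these data known. Alternatives were other scalings, normexp with an offset of 50, the deposited table, other probe rules, other filters and other thresholds. Promoters came from RefSeq (GRCm38.p6); probe positions are the files' own, on mm9, and were not converted.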

Additional observations from a re-analysis of the deposited data

Results flagged for a closer look

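Dbp differed in direction between the compounds when BSO was added. On the log2 scale it was 1.13 for BSO+TGZ against TGZ and -0.45 for BSO+RGZ against RGZ. Nfil3 was 2.75 for BSO+TGZ against Vehicle and -0.53 for BSO+RGZ against Vehicle, again with opposite signs. With 1 pool per group the difference was not tested beyond the spot error, and no cause was tested.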

How the results depend on the processing

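Of 381 member values recomputed under 9 settings, 352 moved by less than the spot error, 29 moved by more and 0 of the called values changed sign. Values near 0 did change sign, such as Dbp for RGZ against Vehicle, at 0.05 with spike-in scaling. Of 88 counts of called members, 82 stayed within 1.5 times. With a 1.5-fold threshold the count was 5 in place of 3 for BSO+TGZ against Vehicle, beside 31.1% of all genes. It was 4 in place of 2 for BSO+TGZ against BSO+RGZ, beside 31.2%. With a 3-fold threshold it was 3 in place of 5 for TGZ against RGZ, beside 7.59%. For BSO+TGZ against TGZ it was 0 in place of 2, beside 0.471%. That last count was 1 with normexp, beside 0.332%, where Hlf came to 0.98 in place of 1.27. With no filter on dim probes the count was 1 in place of 0 for BSO+RGZ against Vehicle, beside 10.6%.

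Bhlhe41 for TGZ against RGZ came to 0.53 with spike-in scaling and 0.68 with normexp, in place of 1.08, and Hlf for BSO+TGZ against BSO+RGZ to -1.30 with spike-in scaling in place of -0.98. Over all genes, normexp called 1097 higher and 907 lower for TGZ against Vehicle, in place of 2147 and 2021, and spike-in scaling 1201 and 4288. For BSO+TGZ against TGZ normexp called 50 and 17 in place of 326 and 103, and spike-in scaling 694 and 41. Spike-in scaling also moved the higher and lower counts to 1392 and 1967 from 1780 and 1265 for BSO+TGZ against Vehicle, and to 965 and 4637 from 1985 and 1806 for TGZ against RGZ. With it they were 1067 and 2410 in place of 1775 and 1124 for BSO+TGZ against BSO+RGZ, 459 and 259 in place of 353 and 356 for RGZ against Vehicle, and 907 and 577 in place of 646 and 802 for BSO+RGZ against Vehicle. For BSO+RGZ against RGZ quantile normalization called 133 higher and 113 lower in place of 111 and 154, and normexp 22 and 23. For BSO+TGZ, RGZ and BSO+RGZ against Vehicle normexp called 887 and 489, 138 and 90, and 279 and 249. With no filter the share of genes called was 7.63% in place of 3.33% for RGZ against Vehicle, 10.6% in place of 6.83% for BSO+RGZ against Vehicle, 7.14% in place of 2.06% for BSO+TGZ against TGZ and 6.73% in place of 1.25% for BSO+RGZ against RGZ.

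No paired analysis was possible because each group is 1 array of 1 pool. There was no replicate to leave out. The number of arrays limits the precision: spot error covers the array alone, and Bhlhe41 is limited by signal over background.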

Other observations

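Genes with a searched string in the 250 bases before a start were described after the values were seen, for 4 motifs in 8 comparisons. For TGZ against Vehicle 40 of 333 genes with a D-box (12%) lay at least 2-fold lower, beside 11.0% of the 12271 genes with a promoter in the table, and 10.5% lay at least 2-fold higher, beside 10.2%. For BSO+TGZ against TGZ, 13 of 325 (4.0%) lay at least 2-fold higher, beside 1.54% of 12088, while the median was -0.012 for both. Of 339 genes with a cyclic AMP response element, 6.19% lay at least 2-fold lower with TGZ against Vehicle, beside 11.0%, and 11.8% at least 2-fold higher, beside 10.2%. For genes with an E-box or E-prime box these shares were 11.3% and 11.2% lower and 10.4% and 11.9% higher.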
